A study of Mus musculus with 21 samples.

Results

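The genes described here are 10 genes of the T cell receptor complex and of T cell identity: Cd3d, Cd3e, Cd3g, Cd4, Cd8a, Cd8b1, Cd2, Lck, Zap70 and Foxp3. They were chosen by name, out of 23937 genes with a symbol on the array design used at day 7 and 27073 on the design used at day 0, by a rule that used no signal value but with earlier results of these data known. Each gene was read at all of its probes (14 at day 7, 18 at day 0), and the probe with the highest mean signal over the arrays of a day stood for the gene. All 10 genes had a tested probe at day 0 and 9 had one at day 7, where the Cd8b1 probe missed the detection filter.

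RNA came from whole colon of germ-free (GF) male C57BL/6J mice, animals raised without any microorganism, which were labelled either GF Card9-/- or GF WT. Card9 encodes an adaptor protein that carries signals from fungal recognition receptors in myeloid cells. Day 0 held 7 arrays labelled GF Card9-/- and 6 labelled GF WT, before treatment. Day 7 held 4 arrays of each label, after 7 days of 2% dextran sulfate sodium (DSS) in the drinking water, a detergent-like polymer that injures the colon epithelium and causes colitis. All mice of both labels and both days were germ-free, so no group carries a microbiota. Each array held the RNA of 1 sample read in a single colour. The days were read on different array designs, so day and design cannot be told apart and no gene was compared between the days within a label. The labels number the samples without naming the animal, litter or cage, so p-values measure the spread between these samples, which may be technical in part.

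Whole colon mixes epithelium, muscle, fat and immune cells. T cells recognise antigen through a receptor whose variable chains have almost no cytoplasmic tail, and the CD3 chains carry the signal into the cell. Lck, held at the coreceptors CD4 and CD8, phosphorylates the CD3 tails, and Zap70 then docks there and passes the signal on. CD2 is an adhesion receptor of T and NK cells, and Foxp3 is the transcription factor that defines regulatory T cells. In the colon, T cells lie within the epithelium, in the lamina propria and in lymphoid follicles. A lower signal of these genes in whole tissue can reflect fewer T cells or less RNA per T cell, which cannot be told apart in these data.

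The label check went against the labels. At day 0 the Card9 probe with the largest label difference read between 8.71 and 9.24 (log2 scale) in the 7 arrays labelled GF Card9-/-. In the 6 labelled GF WT it read between 2.30 and 2.33. A second Card9 probe of day 0 read 6.75 to 7.51 under the Card9-/- label and 2.85 to 3.77 under the WT label. At day 7 the Card9 signal was 8.0, 8.57, 7.93 and 8.02 in the arrays labelled GF Card9-/- 2, 2.1, 4 and 6, against 7.85, 2.39, 2.41 and 2.38 in GF WT 1, 4, 5 and 6. Card9 was thus higher under the label of the deletion at both days, and GF WT 1 at day 7 read like the arrays of the other label. Where the deleted part lies relative to these probes is not given in the sources used here. All directions below are differences between labels, in the order Card9-/- labels minus WT labels. Between 42.2% and 57.1% of the spots were well above background per array at day 7, and between 54.5% and 64.9% at day 0.

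At day 7 the T cell genes were higher, on average, in the arrays labelled GF Card9-/-, but the difference came from 2 of the 4 arrays and no gene passed the test. The mean was higher under the Card9-/- label in 8 of the 9 tested genes, with a median log2 difference of 0.70. The 8 include Cd8a, which 0 of 4 arrays labelled GF WT read well above background. With a filter on signal well above background, 7 of 7 genes were higher and the median was 0.70. The median over the 9 genes was 0.37 with normexp background correction and in the deposited log2 table. It was 0.39 with dim values raised to the lowest signal well above background on their array. Over all 44643 tested probes 50.4% had a higher mean under that label, and their median difference was 0.0013. None of the 9 genes had an adjusted p under 0.05 (limma, Benjamini-Hochberg over all tested probes), in a comparison where 0% of all tested probes were called. At an unadjusted limma p under 0.05, 2 genes (Cd3g and Lck) were higher under the Card9-/- label, against 2.02% of all tested probes. The labels did not separate fully in any of the 9 genes, while 1.08% of all tested probes were higher in every array labelled GF Card9-/- than in every array labelled GF WT.

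**Figure D1:**
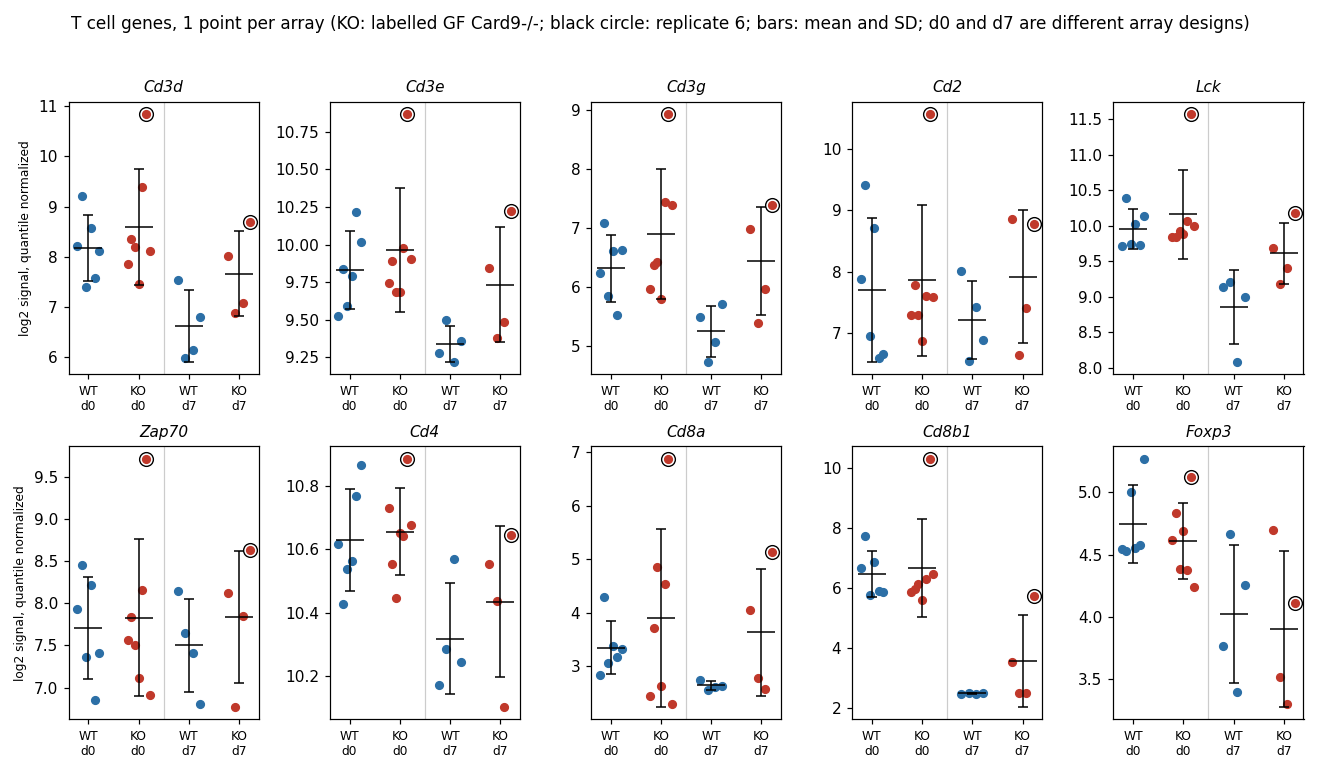
Normalized log2 signal of the 10 T cell genes, 1 panel per gene and 1 point per array, with GF WT (WT, blue) and GF Card9-/- (KO, red) labels at day 0 (d0) and day 7 (d7); horizontal bars are means, whiskers are 1 SD, and a black circle marks the array labelled GF Card9-/- replicate 6 of each day. Values of d0 and d7 come from different array designs and are not comparable. At day 0 replicate 6 stands above all other arrays in 9 of the 10 genes.

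The 3 CD3 genes, which encode the signalling chains of the receptor, lie next to each other on chromosome 9. In GRCm38.p6, Cd3g (44969572 to 44980431) and Cd3d (44981769 to 44987052) are read away from each other with 1337 bases between them, and Cd3e (44998735 to 45009663) follows 11682 bases further on. The stretches before the starts of these 3 genes are shown because the genes moved together over the arrays. They come from the RefSeq annotation of GRCm38.p6, run 5′ to 3′ on the strand of the gene and end before the outermost annotated transcript. Capitals mark matches to 5 motifs of 6 letters, searched on both strands in the 250 bases before each annotated start. The motif of ETS factors was spelled AGGAAG. The motif of RUNX factors was spelled TGTGGT. The motif of GATA factors was spelled AGATAA, the E box motif was spelled CAGCTG, and the TATA box was spelled TATAAA.
Cd3g, chr9:44980432-44980681, minus strand: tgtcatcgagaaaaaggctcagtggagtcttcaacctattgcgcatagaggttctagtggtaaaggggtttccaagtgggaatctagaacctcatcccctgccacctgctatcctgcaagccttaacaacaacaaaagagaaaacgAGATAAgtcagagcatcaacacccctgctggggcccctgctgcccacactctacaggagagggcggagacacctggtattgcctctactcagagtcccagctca
Cd3d, chr9:44981536-44981768, plus strand: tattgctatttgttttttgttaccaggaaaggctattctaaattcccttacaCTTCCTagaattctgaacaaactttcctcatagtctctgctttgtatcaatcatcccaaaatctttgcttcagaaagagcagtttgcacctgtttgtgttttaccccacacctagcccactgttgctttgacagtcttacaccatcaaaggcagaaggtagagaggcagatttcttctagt
Cd3e, chr9:45009664-45009861, minus strand: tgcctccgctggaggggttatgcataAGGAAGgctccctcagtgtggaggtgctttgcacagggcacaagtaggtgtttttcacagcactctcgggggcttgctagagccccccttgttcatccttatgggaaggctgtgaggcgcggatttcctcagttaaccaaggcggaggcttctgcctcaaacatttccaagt

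Cd3d held 1 ETS match, 198 bases before its annotated start. Cd3e held 2, at 224 and 17 bases, of which the second lies past the printed stretch. Cd3g held no ETS match and 1 GATA match at 104 bases. Of all 32851 RefSeq windows of this length, 29.5% held the ETS motif, 14% the RUNX motif, 9.99% the GATA motif, 13% the E box and 12.4% the TATA box, and no 2 matches in the windows of the 10 genes overlapped. None of the 3 CD3 windows held a TATA box match. RefSeq windows were given for 7 of the 10 genes.

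Cd3g, a chain with a single signalling motif in its tail, was measured with a probe of its transcript record on chromosome 9 (44777868 to 44777927 in the NCBI37 build of the array annotation). Its log2 signal was 6.99, 5.40, 5.97 and 7.39 in the arrays labelled GF Card9-/- 2, 2.1, 4 and 6, and 5.50, 4.74, 5.07 and 5.71 in GF WT 1, 4, 5 and 6. Replicates 2, 4 and 6 of the Card9-/- label were above every array labelled GF WT, and replicate 2.1 lay among them. The log2 difference was 1.18 (SE 0.46, 95% interval 0.10 to 2.26, limma adjusted p = 0.91, 4 arrays per label). It was 0.62 with normexp background correction and 0.69 in the deposited log2 table. The probe was well above background on 4 of 4 arrays labelled GF Card9-/- and on 1 of 4 labelled GF WT.

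Cd3d gave 8.02, 6.87, 7.08 and 8.69 in the arrays labelled GF Card9-/- 2, 2.1, 4 and 6 and 7.54, 5.99, 6.13 and 6.80 in GF WT 1, 4, 5 and 6. Replicates 2 and 6 were above every array labelled GF WT, and the other Card9-/- labels overlapped with them. The log2 difference was 1.05 (SE 0.50, limma adjusted p = 0.91), and 0.69 with normexp. Cd3e, read by a brighter and flatter probe, gave 9.84, 9.38, 9.48 and 10.23 against 9.28, 9.50, 9.22 and 9.36. Again only replicates 2 and 6 exceeded all arrays of the other label, and the log2 difference was 0.39 (SE 0.20, limma adjusted p = 0.91). It was 0.23 without replicate 6 and 0.18 with slide as a fixed block.

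Both kinases were highest in replicate 6. Lck, which starts the phosphorylation cascade, gave 9.69, 9.19, 9.40 and 10.17 in the arrays labelled GF Card9-/- 2, 2.1, 4 and 6, against 9.14, 9.21, 8.09 and 9.00 in GF WT 1, 4, 5 and 6. Its log2 difference was 0.75 (SE 0.31, 95% interval 0.02 to 1.49, limma adjusted p = 0.91), and its lowest value was in GF WT 5. Without GF WT 5 the Lck difference was 0.50, and with slide as a fixed block it was 0.33. Zap70, which docks on the phosphorylated CD3 chains, gave 8.12, 6.77, 7.85 and 8.63 against 8.14, 7.65, 7.41 and 6.81. Its labels overlapped over nearly their whole range, with a log2 difference of 0.34 (SE 0.44, limma adjusted p = 0.92). It was 0.077 without GF Card9-/- 6, 0.11 without GF WT 6, 0.69 without GF Card9-/- 2.1 and 1.01 with the replicate number as a block. A second, dimmer Zap70 probe gave a log2 difference of 0.72 (SE 0.51).

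Cd2, the adhesion receptor, gave 8.85, 6.65, 7.41 and 8.78 in the arrays labelled GF Card9-/- 2, 2.1, 4 and 6 and 8.01, 6.55, 7.42 and 6.89 in GF WT 1, 4, 5 and 6. Replicates 2 and 6 were again the only arrays above all of the other label. The log2 difference was 0.70 (SE 0.57, limma adjusted p = 0.91). It was 0.39 without replicate 2, 0.42 without replicate 6, 1.13 without 2.1 and 1.37 with the replicate number as a block.

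Among the coreceptors, the brightest Cd4 probe was flat and the Cd8 genes were at the edge of detection. Cd4 gave 10.55, 10.44, 10.10 and 10.65 in the arrays labelled GF Card9-/- 2, 2.1, 4 and 6 and 10.17, 10.29, 10.57 and 10.25 in GF WT 1, 4, 5 and 6. The difference of 0.12 (SE 0.16, 95% interval -0.25 to 0.48, limma adjusted p = 0.93) lay within the spread of either label, and was 0.046 without GF Card9-/- 6 and 0.23 without 4. A second Cd4 probe, well above background on 1 of 8 arrays, gave 0.0010 (SE 0.44). Cd8a gave 4.05, 2.78, 2.57 and 5.13 against 2.75, 2.56, 2.62 and 2.63, and was well above background on 2 arrays, those labelled GF Card9-/- 2 and 6. Because 0 of 4 arrays labelled GF WT read it well above background, no fold is given, and its fitted log2 difference of 0.995 (SE 0.54, limma adjusted p = 0.91) has no measured level behind the WT label. That difference was 0.26 with normexp, 0.33 in the deposited table, 0.27 with dim values raised and 0.50 without GF Card9-/- 6. Cd8b1, the partner chain of Cd8a on CD8 T cells, gave 3.53, 2.48, 2.49 and 5.72 against 2.45, 2.49, 2.45 and 2.51 and was well above background only in GF Card9-/- 6.

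Foxp3 was dim at day 7, well above background on 1 of 8 arrays. It gave 4.69, 3.52, 3.30 and 4.11 in the arrays labelled GF Card9-/- 2, 2.1, 4 and 6 and 3.77, 4.66, 3.40 and 4.25 in GF WT 1, 4, 5 and 6. It was the only tested gene of the set with a lower mean under the Card9-/- label, by a log2 difference of -0.11 (SE 0.39, limma adjusted p = 0.98), and its sign turned in 3 of the 8 fits that left out 1 array, while the replicate number as a block gave -0.75.

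The average over the 9 tested genes, each taken relative to its own mean over the 8 arrays, sums up which arrays carried the difference. It was 0.70 in GF Card9-/- 2 and 1.03 in GF Card9-/- 6, but -0.39 in 2.1 and -0.14 in 4, next to -0.02, -0.37, -0.51 and -0.31 in GF WT 1, 4, 5 and 6. Replicate 6 held the highest value in 7 of the 9 genes and replicate 2 in the other 2. Replicate 6 was above every GF WT array in 8 genes and replicate 2 in 7, whereas 2.1 was so in 1 and 4 in 2. Without replicate 2 the median log2 difference was 0.39 in place of 0.70, and without replicate 6 it was 0.42. Without 2.1 it was 0.90 over the same 9 genes (1.01 over 10, since Cd8b1 then passed the filter), and without GF WT 1, the array whose Card9 signal was high, 0.85.

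**Figure D2:**
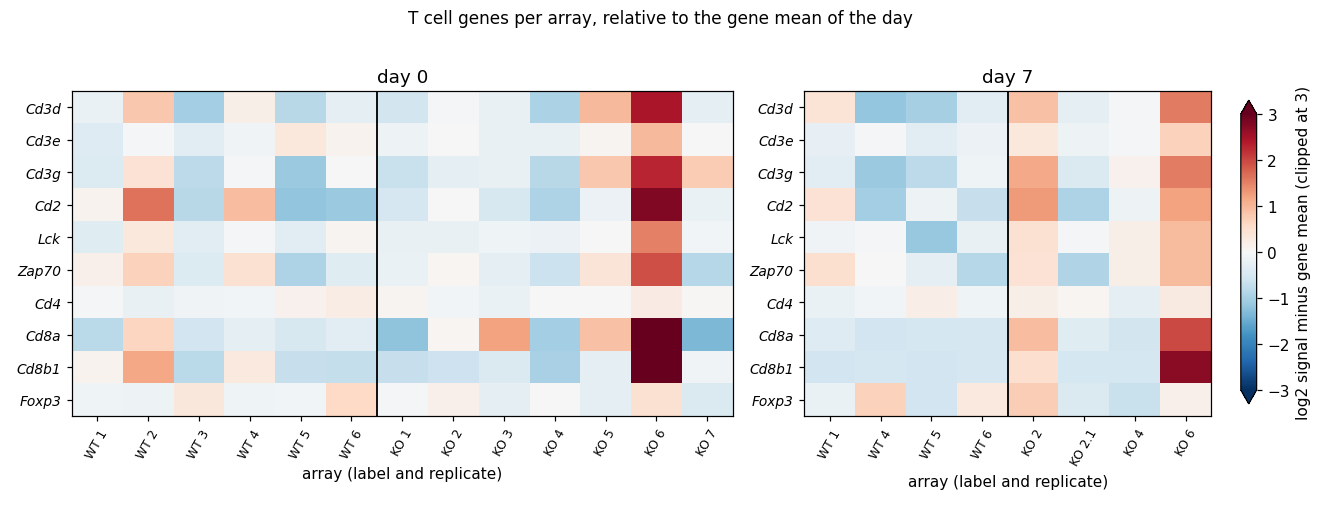
Normalized log2 signal of the 10 T cell genes (rows) in each array (columns, GF WT labels left of the black line, GF Card9-/- labels, written KO, right of it), as the difference from the gene's mean over the arrays of the day, at day 0 (left) and day 7 (right); colours stop at 3 in either direction. Red columns at day 7 are GF Card9-/- replicates 2 and 6, and at day 0 replicate 6.

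The 8 arrays lay on 6 slides, and 2 slides held both labels. On the slide with GF Card9-/- 2 and GF WT 6 the median log2 difference was 1.21 and all 9 genes were higher under the Card9-/- label. On the slide with GF Card9-/- 2.1 and GF WT 4 it was 0.09, with 5 of 9 genes higher. With slide as a fixed block, the median was 0.33. Each of these slides held 1 array per label, so slide and array cannot be told apart there.

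Before DSS, at day 0, no T cell gene passed the test either, and a single array stood far from the others. The mean was higher under the Card9-/- label in 9 of 10 genes, with a median log2 difference of 0.18, against 57% of all 47410 tested probes and a median over all of them of 0.0154. None of the 10 genes passed the test (limma adjusted p between 0.91 and 0.99), where 0.0253% of all tested probes were called. None had an unadjusted limma p under 0.05 in the direction of the Card9-/- label, against 3.89% of all probes, and none separated the labels, against 0.316%. The array labelled GF Card9-/- 6 held the highest value in 9 of the 10 genes. Without it, 3 of 10 genes in place of 9 had a higher mean under the Card9-/- label, and the median log2 difference was -0.02.

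Cd8b1 showed the widest gap at day 0. It gave 10.31 in GF Card9-/- 6 and between 5.60 and 7.74 in the other 12 arrays, so that replicate 6 was 19.2-fold above the median of the others. Cd8b1 was well above background on all 13 arrays with the day 0 probe, which is another probe than the day 7 one. Under the WT label it ran from 5.78 (median 6.28) to 7.74. The label difference was 0.20 (SE 0.69, limma adjusted p = 0.99) and became -0.41 without replicate 6. Cd8a, well above background on 2 arrays, both labelled GF Card9-/-, reached 6.88 in replicate 6 against at most 4.86 elsewhere.

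Cd3d was 10.85 in GF Card9-/- 6 and between 7.39 and 9.38 in the other 12 arrays. It had a median of 8.19 under the Card9-/- label and of 8.16 under the WT label, and the label difference was 0.42 (SE 0.51, limma adjusted p = 0.92) with replicate 6 and 0.05 without. Cd3g was 8.93 in replicate 6 and 5.53 to 7.45 in the others, and its difference went from 0.58 (SE 0.47) to 0.24. Cd3e was 10.87 against 9.52 to 10.22, and its difference went from 0.13 to -0.02. All 3 CD3 genes had their highest value in the same array, 2.08-fold (Cd3e) to 6.46-fold (Cd3d) above the median of the others.

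Lck was 11.57 in GF Card9-/- 6, where the other 12 arrays spanned only 9.71 to 10.39. Zap70 was 9.71 against 6.85 to 8.46. Cd2 was 10.56 against 6.60 to 9.42, with GF WT 2 next. Without replicate 6 the label differences of these 3 genes turned from 0.21, 0.12 and 0.15 to -0.03, -0.19 and -0.30, in the same order.

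Cd4 and Foxp3 set themselves apart at day 0 as well. Cd4 ran from 10.45 (median 10.65) to 10.88 under the Card9-/- label and from 10.43 (median 10.59) to 10.87 under the WT label. Its difference was 0.03 (SE 0.08, 95% interval -0.16 to 0.21). A dimmer Cd4 probe, with means of 4.52 and 4.25 in the same order, gave 0.27 (SE 0.19). It was read well above background by 2 of 7 arrays labelled GF Card9-/- and 1 of 6 labelled GF WT. Another Cd4 probe, with means of 3.27 and 2.76, missed the filter and was well above background on no array. Foxp3 ran from 4.24 (median 4.62) to 5.12 under the Card9-/- label and from 4.53 (median 4.57) to 5.27 under the WT label, and was highest in GF WT 6. Its difference was -0.14 (SE 0.17, limma adjusted p = 0.92).

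The average over the 10 genes was 1.96 in GF Card9-/- 6 and between -0.57 and 0.53 in the other 12 arrays, with GF WT 2 next. Replicate 6 was above every GF WT array in 9 genes, replicate 5 in 3, and replicates 1, 2 and 4 in 0. Every slide of day 0 held both labels. The median log2 difference was -0.14, -0.11 and -0.34 on the first 3 slides, with 4, 4 and 2 of 10 genes higher under the Card9-/- label. On the fourth, which held GF Card9-/- 5 and 6 and GF WT 6, it was 1.54, with 8 of 10 higher. Leaving out the 3 arrays of that slide gave a median of -0.13 with 2 of 10 higher, an alternative chosen after seeing the data. With the scan session as a block the median was 0.17.

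**Figure D3:**
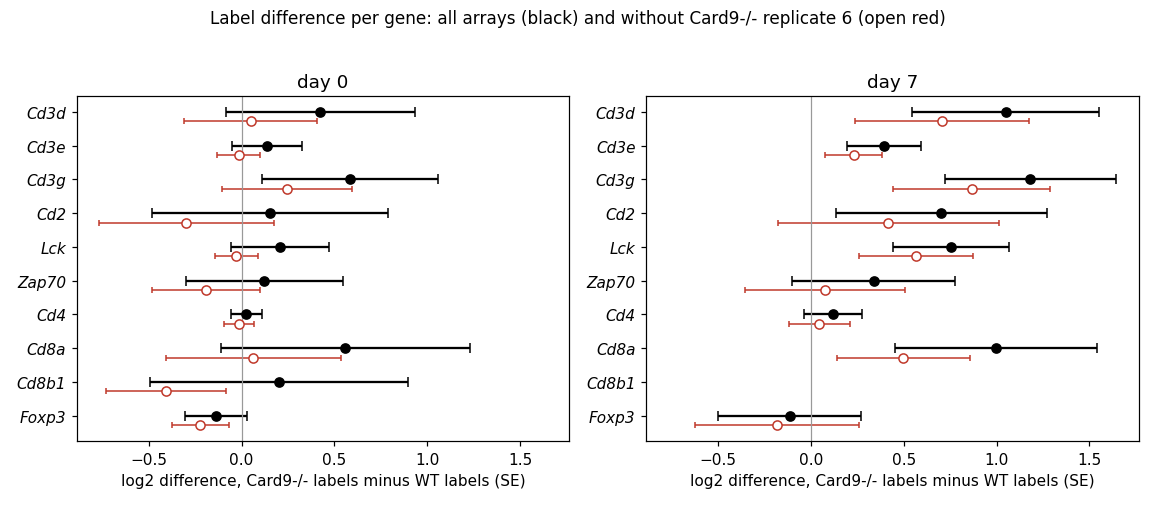
Log2 difference between the arrays labelled GF Card9-/- and those labelled GF WT for each T cell gene at day 0 (left) and day 7 (right), with all arrays (black, filled) and without GF Card9-/- replicate 6 of that day (red, open); whiskers are 1 SE from limma. Cd8b1 was not tested at day 7. At day 0 leaving out replicate 6 moves Cd8b1 from 0.20 to -0.41 and Cd2 from 0.15 to -0.30.

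Whether the label difference itself changed between the days was tested on the 9 genes whose probe was tested on both designs, in 1 limma fit with each day normalized alone. The difference at day 7 minus that at day 0 was above 0 in 9 of 9 genes, from 0.02 (Foxp3) to 0.62 (Cd3d, SE 0.82), and 0 passed (adjusted p between 0.83 and 0.995), where 0% of 23633 probes were called. The lowest unadjusted p was 0.22 (Lck, difference 0.55, SE 0.43, limma). The 9 genes share their arrays, so their common sign is not independent evidence. Without GF Card9-/- 6 of day 7, 6 of 9 were above 0.

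How alike the genes were over the arrays was measured as Pearson's r between each gene and the average of the other members, after removing the label means. At day 0 (13 arrays) r was 0.22 for Cd4 and 0.29 for Foxp3 and between 0.74 and 0.96 for the other 8. At day 7 (8 arrays) it was 0.37 for Cd4, 0.47 for Foxp3, 0.67 for Lck and between 0.73 and 0.90 for the other 6. Points share normalization and, at day 0, lean on replicate 6, so r describes these arrays only.

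Outside the 10 genes, those whose brightest probe followed the T cell average most closely at day 0 were Gm38409 (r = 0.97), Ccl5 (0.96), Haao (0.95), Ptprcap (0.95) and Rac2 (0.95), among 15387 genes over 13 arrays. At day 7 they were Tatdn2 (r = 0.95), Spn (0.94), Ms4a4b (0.94), Rac2 (0.93) and Ddx5 (0.92), among 12902 genes over 8 arrays. Tatdn2 and Ddx5 varied little, with SDs of 0.20 and 0.12 over these arrays and label differences of -0.14 and 0.03. Spn, Ms4a4b and Rac2 had SDs of 0.65, 0.84 and 0.69 and label differences of 0.74, 0.77 and 0.73. Ranked by the lower r of the 2 days among 12432 genes, Rac2 (0.93) led, and others among the highest were Ms4a4b (0.91), Limd2 (0.88) and Arhgap4 (0.87). Rac2 is a GTPase of blood cells. Rac2 gave 9.92, 8.61, 8.95 and 10.10 in GF Card9-/- 2, 2.1, 4 and 6 at day 7 and 9.34, 8.30, 8.60 and 8.41 in GF WT 1, 4, 5 and 6. At day 0 it was 11.38 in GF Card9-/- 6 and 10.46 in GF WT 2, the next highest.

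The wider T cell program was read from lists of genes other than the 10. Of the 20 TCR signalling partners (adaptors, kinases and costimulatory receptors), 18 were tested at day 7, 0 passed, 14 were higher under the Card9-/- label and the median log2 difference was 0.43. Txk, a tyrosine kinase of T cells, gave 5.89, 5.41, 6.85 and 6.24 against 5.45, 4.87, 3.99 and 4.83, with a fitted difference of 1.31 (SE 0.39, limma adjusted p = 0.91). Only 1 of 4 arrays labelled GF WT read it well above background. Unlike the 10 genes, Txk was highest in GF Card9-/- 4. Cd5, a receptor that dampens TCR signals, gave 7.10, 5.14, 5.69 and 7.83 against 6.30, 5.00, 5.40 and 5.20, high in replicates 2 and 6. Over the list, 11 of 18 genes were highest in replicate 6, and 1 of the 18 was well above background on no array. At day 0, 18 of 20 were higher under the Card9-/- label with a median of 0.12, and 15 of 20 were highest in GF Card9-/- 6. Of the 20, 3 were well above background on no array.

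Naive and recirculating T cell genes were often highest in the same array at day 7. Of 9 tested, 0 passed, 6 were higher under the Card9-/- label (median 0.22), and 5 were highest in replicate 6. Ccr7, the receptor that guides T cells into lymphoid tissue, gave 9.20, 8.58, 8.73 and 9.96 in GF Card9-/- 2, 2.1, 4 and 6 against 8.63, 7.62, 7.92 and 8.28, a log2 difference of 1.0 (SE 0.35, limma adjusted p = 0.91). At day 0, 7 of 9 were highest in GF Card9-/- 6, where Ccr7 reached 11.11 against at most 10.03 elsewhere.

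Cytotoxic and NK cell genes were higher under the Card9-/- label in 12 of 13 tested at day 7 (median 0.47, 0 passed) and in 9 of 14 at day 0 (median 0.23, 0 passed). Of these, 4 of the 13 at day 7 and 4 of the 14 at day 0 were well above background on no array. Gzma, a granzyme, gave 8.25, 6.17, 6.63 and 8.59 against 6.76, 5.01, 4.98 and 7.98 at day 7. Gzmk, another granzyme, departed from this pattern with 7.85, 7.88, 6.07 and 7.49 against 5.76, 6.87, 5.96 and 6.92, high in replicate 2.1 as well.

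Regulatory and helper T cell genes were read from separate lists. Of 9 regulatory T cell partners tested at day 7, 0 passed and 6 were higher under the Card9-/- label (median 0.16). Of these 9, 2 were well above background on no array. Il2ra, the high-affinity chain of the IL-2 receptor, gave a log2 difference of 0.48 (SE 0.44) and Tigit, an inhibitory receptor that no array read well above background, -0.46 (SE 0.31). At day 0, 5 of 9 were higher (median 0.12, 0 passed), and 1 of the 9 was well above background on no array. Of 13 T helper genes tested at day 7, 0 passed and 9 were higher (median 0.13), while 6 of the 13 were well above background on no array. Tbx21, the factor of type 1 helper cells, gave 0.59 (SE 0.44). Of the arrays labelled GF WT, 1 of 4 read Tbx21 well above background, and for Il2ra the count was the same. Il17a, the cytokine of type 17 helper cells, was read well above background by no array, so its lower fitted value under the Card9-/- label (-0.66, SE 0.36) has no measured level behind it. Il13, a type 2 cytokine, was well above background in GF WT 1 alone. At day 0, 5 of 12 T helper genes were higher (median -0.10, 0 passed), while 5 of the 12 were well above background on no array.

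**Figure D4:**
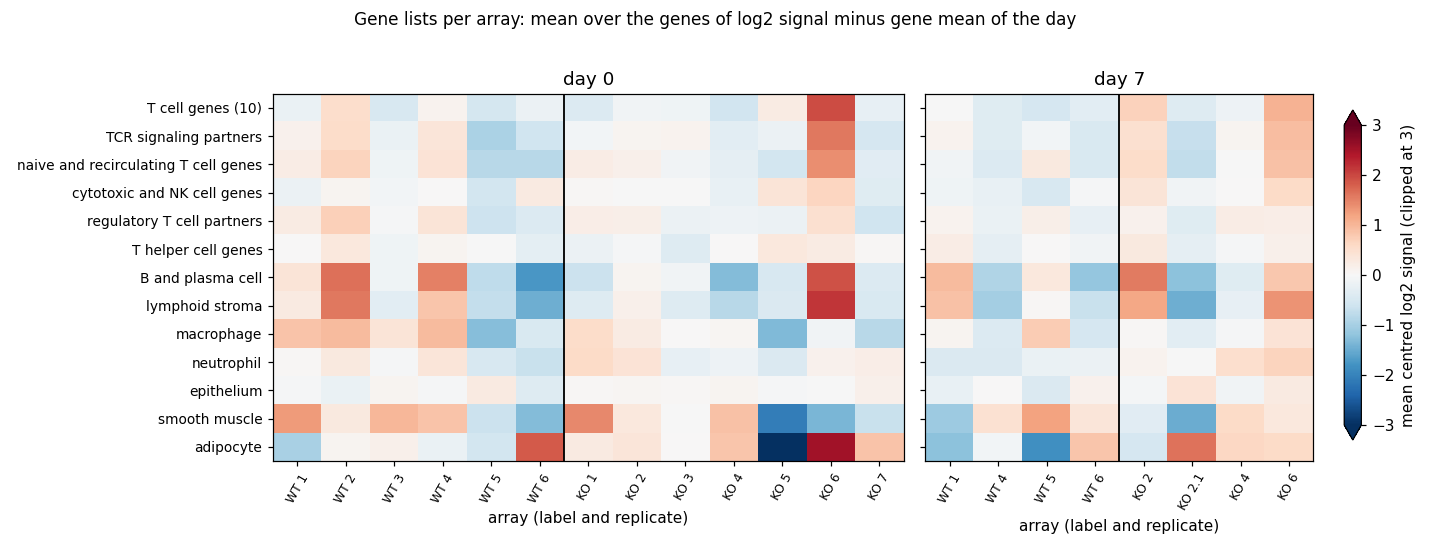
Mean centred log2 signal (each gene's day mean subtracted) over the tested genes of each list, for each array (columns, GF WT labels left of the black line, GF Card9-/- labels, written KO, right of it) at day 0 and day 7; colours stop at 3 in either direction, and the top row holds the 10 T cell genes (9 tested at day 7). In GF Card9-/- replicate 6 of day 0 the T cell average was 1.96, the B cell list 1.92 and the lymphoid stroma list 2.16.

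Markers of some other cells were high in the day 0 array with the highest T cell signal. At day 0 GF Card9-/- 6 was also the highest array for 8 of 13 B and plasma cell genes and for 3 of 7 lymphoid stroma genes. It had the highest average of the lymphoid stroma list (2.16). Not all lists were high in that array, with averages of -0.10 for macrophages, 0.12 for neutrophils, -0.02 for epithelium and -1.38 for smooth muscle. Glycam1, made by the high vessels of lymph nodes, reached 13.08 there against 10.53 in GF WT 2, the next, and Ccl19, a chemokine of T cell zones, 9.81 against 8.70. Ms4a1, which encodes CD20 of B cells, reached 11.47, and 10.92 in GF WT 2. Summed normalized signal of the B and plasma cell list ran from 2686 to 18786 under the Card9-/- label and from 1289 to 25340 under the WT label, with all 13 markers well above background on at least 1 array. For lymphoid stroma it ran from 7684 to 31078 and from 5750 to 19928, and for adipocyte genes from 1658 to 221373 and from 16894 to 126778, highest in GF Card9-/- 6 in both lists. Their part in the T cell values was not tested.

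The 2 arrays of day 7 with high T cell signal differed from each other in other tissue markers. B and plasma cell genes were highest in GF Card9-/- 2 in 9 of 12, with a summed signal of 1727 to 12126 under the Card9-/- label and 1334 to 9413 under the WT label, and 11 of 12 had a higher mean under the Card9-/- label (median 0.43). At day 0, 1 of 13 of them had a higher mean under that label (median -0.18). Lymphoid stroma genes averaged 1.15 in replicate 2 and 1.35 in replicate 6, but also 0.89 in GF WT 1. Pancreas enzyme genes summed to 518592 in GF Card9-/- 6 and 28071 in 2.1, against at most 617 in the other 6 arrays. Their mean was higher under the Card9-/- label in 8 of 8 genes (median 5.22), and 4 of the 8 separated the labels, as did 1.08% of all tested probes in this direction. The pancreas sum of GF Card9-/- 2 was 198, within the 157 to 234 of the WT label. Without GF Card9-/- 6 and 2.1, an alternative chosen after seeing the data, the median log2 difference of the T cell genes was 0.67, with 8 of 9 genes higher. That alternative kept GF Card9-/- 2, the other array with high T cell signal. Neutrophil genes were higher under the Card9-/- label in 10 of 10 (median 0.33), of which 3 were well above background on no array. S100a8 and S100a9 separated the labels, as did 1.08% of all tested probes in this direction. They were highest in GF Card9-/- 4 and not in 2 or 6. S100a8 was well above background on 1 of 8 arrays. Macrophage genes (median 0.05, 8 of 11 higher) were highest in GF WT 5 in 9 of 11 genes. Of the remaining lists at day 7, epithelium genes were higher under the Card9-/- label in 9 of 10 (median 0.32), adipocyte genes in 6 of 7 (median 1.45), small intestine genes in 3 of 6 (median 0.46) and smooth muscle genes in 0 of 6 (median -0.45). At day 0 the medians were 0.076 for epithelium, -0.26 for small intestine, -0.45 for smooth muscle, -0.34 for macrophages, 0.13 for neutrophils and 1.73 for pancreas, where the array labelled GF Card9-/- 7 held the highest value of all 8 genes. No gene of these lists passed the test at either day. The part of these cells in the T cell values was not tested.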

How the data were processed

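The authors extracted total colon RNA and scanned single-colour Cy3 arrays. The deposited spot intensities are linear, as written by Agilent Feature Extraction 10.7.3.1 (submitters' processing notes), with a detection p-value per spot in the deposited files. The authors also deposited a log2 table per design, used here as an alternative. Here the processed intensities were put on a log2 scale and quantile normalized within each day. Control spots and spots with an outlier flag were then dropped, and replicate spots were averaged. Detection on an array meant that 50% or more of the spots of a probe had p under 0.05. Testing required detection in 60% or more of the samples of either label, with 2 values per label, and kept 44643 probes of 55681 (day 7) and 47410 of 56605 (day 0). Labels were compared within a day with limma 3.58.1 (R 4.3.3, eBayes) and Benjamini-Hochberg at 0.05 over all tested probes, the approach named in the study's methods. The fit was checked on simulated data.

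The genes and the 15 lists of 156 other genes were chosen with earlier results of these data known. Named list genes were those whose labels did not overlap, plus up to 2 per list with the largest difference at day 7, given for the T cell lists and, in part, for the others. Named like genes were the 5 with the highest r per day and over both days. Some genes that these rules select are not reported here. Replicates 2 and 2.1 of day 7 were counted as separate samples, since the SD of their log2 difference over probes (0.852) lay within that of 11 other pairs of 1 label (0.726 to 1.09). Alternatives changed the scaling, background, filter, probe choice, outlier spots, blocks and arrays left out. Signal over background and the number of arrays limit the precision.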

Additional observations from a re-analysis of the deposited data

Results flagged for a closer look

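Within each label and day, the highest or lowest array was set against Dixon's 95% critical value for the 10 genes, their average, Card9 and 11 list genes, in 92 groups, of which 15 were flagged and of which about 5% are expected to be by chance. In the arrays labelled GF Card9-/- at day 0, replicate 6 stood apart from the other 6 in Cd2 (10.56, next 7.78), Lck (11.57, next 10.07), Cd3e (10.87, next 9.98), Cd8b1 (10.31, next 6.47) and the average over the 10 genes (1.96, next 0.24). The same array stood apart in Cd5 (9.36, next 6.34) and Ccr7 (11.11, next 8.09). In the arrays labelled GF WT at day 0, replicate 2 stood apart in Cd8a (4.29, next 3.38), which was not well above background there. No T cell gene of the 10 was flagged at day 7.

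Card9 was flagged in both labels of day 7, at 8.57 in GF Card9-/- 2.1 and at 7.85 in GF WT 1, where the other 3 arrays labelled GF WT were at most 2.41. Il13 was 6.04 in GF WT 1 of day 7 (next 2.57). Il17a was 3.99 in GF Card9-/- 5 of day 0 (next 2.56), not well above background. Gzmk at day 0 was read by a probe that missed the filter, with 5.99 in GF Card9-/- 3 and a low of 2.49 in GF WT 1, and Tigit was lowest in GF WT 1 of day 0 at 2.31, where no array read it well above background.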

How the results depend on the processing

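The number of T cell genes past the threshold was 0 at day 7, at day 0 and for the difference between days under every alternative run. The median log2 difference moved by more than the spread between arrays only within slides, to 1.21 and 0.094 at day 7 and 1.54 on the fourth slide of day 0. Leaving out 1 array gave medians between 0.39 and 0.90 at day 7 over the same 9 genes (1.01 over 10 without GF Card9-/- 2.1) and between -0.02 and 0.37 at day 0. Background correction by normexp and the deposited log2 table both gave a day 7 median of 0.37, and raising dim values gave 0.39. With the replicate number as a block the medians were 1.01 at day 7 and 0.23 at day 0 and no gene passed. Same-numbered arrays did not deviate together in every pair (correlations 0.03 and 0.11 at day 7 and -0.022 to 0.375 at day 0), so the numbers were not taken as pairs.

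Signs turned as follows. Without the slide of GF Card9-/- 6 at day 0 the differences were -0.20 (Cd3d), -0.012 (Cd3e), -0.17 (Cd8a), -0.57 (Cd8b1), -0.55 (Cd2), -0.019 (Lck) and -0.38 (Zap70). With dim values raised, Foxp3 at day 0 was 0.10. For the difference between days, Foxp3 was -0.13 with 1 normalization over all arrays and -0.68 with the replicate block. When 1 array was left out, the range was -0.38 to 0.10 for Foxp3 at day 7 (0.013 without GF Card9-/- 2.1), and at day 0 it was -0.016 to 0.21 for Cd3e, -0.015 to 0.073 for Cd4, -0.41 to 0.46 for Cd8b1, -0.30 to 0.50 for Cd2, -0.028 to 0.29 for Lck and -0.19 to 0.27 for Zap70. For the difference between days it was -0.061 to 0.93 for Cd8a, -0.045 to 0.57 for Zap70 (0.53 without GF Card9-/- 6 of day 0) and -0.24 to 0.24 for Foxp3. Within single slides other signs turned too, such as Cd3e (-0.12), Lck (-0.017) and Zap70 (-0.88) on 1 slide of day 7 and Cd3g (-0.35) on 1 slide of day 0. The causes were not tested. Signal near background limits Cd8a, Foxp3 and, at day 7, Cd8b1.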

Other observations

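The 7 constant chains of the T cell receptor on the fixed list were matched to no probe by name. Probes that the array annotation names Tcra and Tcrb-J, chosen after their values were seen, lie in a multigene locus and are uncertain. The Tcra probe missed the filter at both days, with 0 of 8 arrays of day 7 and 1 of 13 arrays of day 0 well above background. A Tcrb-J probe gave a log2 difference of -0.06 (SE 0.79, limma adjusted p = 1.0) at day 7, well above background on 3 of 8 arrays.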
